A study of Rattus norvegicus with 8 samples.

Results

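Cells move membrane and cargo between compartments in small vesicles, and the genes described here encode the core of that machinery: the Rab GTPases, the subunits of the adaptor complexes AP-1 to AP-4, the clathrin chains, the sorting nexins (Snx), the Vps proteins, and the SNARE proteins of the VAMP and syntaxin (Stx) families. Members were taken by the gene symbol on the array alone. Rab and clathrin symbols had to consist of the family name and its number or letter, with nothing further. Symbols of the other families had to begin with the family name followed by its number or subunit letter. This gave 133 probes of 128 genes, among the 22523 probes of the array. They comprise 48 Rab, 19 adaptor, 3 clathrin, 23 Snx, 22 Vps, 6 VAMP and 12 syntaxin probes.

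The samples were enamel organs, the cell layer that forms tooth enamel, dissected from the mandibular incisors of 4 male Wistar Hannover rats aged 4 weeks. The rats carried no treatment and no engineered allele. Each rat gave 1 secretory-stage and 1 maturation-stage sample, which were extracted and hybridized separately on 8 Illumina RatRef-12 arrays, so that each stage has 4 biological replicates and replicate numbers pair the stages of a rat. An enamel organ holds ameloblasts together with other cells of the layer, and in such bulk RNA fewer cells of a type and less RNA per cell cannot be told apart.

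In secretory-stage ameloblasts, vesicles carry enamel matrix proteins from the Golgi apparatus to the apical membrane, where they are released. In the maturation stage the same cells take up degraded matrix by endocytosis, route it to lysosomes and traffic ion transporters to a ruffled border. Rab proteins mark each compartment and recruit its effectors, clathrin and the adaptors form the coats that bud vesicles, sorting nexins and Vps complexes sort endosomal cargo, and SNAREs fuse the vesicle with its target.

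Values are background-corrected, quantile-normalized log2 signals, and changes are log2 fold changes of the maturation stage over the secretory stage with their standard errors (SE). A gene is said to have risen or fallen where limma's Benjamini-Hochberg adjusted p over all 22523 probes was below 0.05, and to have passed both thresholds where the change was also at least 1.8-fold. A probe counts as detected on an array at a detection p below 0.05. Of the 133 probes, 98 were detected on all 8 arrays, 109 on at least 4, and 14 on none. Within a stage, the median SD of the 109 detected members was 0.101 in the secretory and 0.116 in the maturation arrays, against 0.147 and 0.142 over the 11233 probes detected on at least 4 arrays.

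The sums of the deposited signals ranged from 11881691 to 12046793 on the secretory arrays and from 13355073 to 16122665 on the maturation arrays. Every one of the 8 arrays resembled the arrays of its own stage most. The matrix gene Enam read 11.94 to 12.03 in the secretory arrays, and 9.08, 5.17, 5.53 and 8.22 in maturation replicates 1 to 4, so that maturation replicates 1 and 4 kept more of it. Maturation markers (Klk4, Slc24a4 and Car6) were higher with all 4 of their probes. Of 15 macrophage and leukocyte probes 11 were higher in maturation past both thresholds and none lower, and their summed log2 signal was 12.19 to 12.46 in the secretory and 13.60 to 13.95 in the maturation arrays, with Cd68, a defining gene, detected on every array. Of 4 osteoclast probes 3 were higher, with sums of 12.53 to 13.05 and 13.87 to 14.23. The odontoblast gene Dspp read 9.33 to 10.68 in the secretory arrays and was not detected in maturation, while Ibsp, on the same list of 7 odontoblast and osteoblast probes, was higher by 1.95 and Dmp1 had a change of 0.98 that did not pass the test. These markers move with every comparison of the stages given here, and their part in the results was not tested.

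Most of the machinery was detected in both stages, and changes past both thresholds were spread over 5 of the 7 families. Past both thresholds 12 of the 133 member probes differed between the stages, which is 9.02% against 7.75% of all probes. Among probes detected on at least 4 arrays the shares were 11.0% of 109 members and 15.5% of 11233 probes. Rab24, Ap2a2, Clta, Vps37b, Rab21 and Ap1b1 were higher in maturation, 6 probes against a background of 4.6% of all probes and 9.19% of the detected ones. Rab27a, Rab33a, Snx25, Rab38, Rab34 and Snx11 were lower, 6 probes against 3.15% and 6.27%.

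At the adjusted p alone, 26 members rose and 33 fell, 59 in all or 44.4%, against 26.9% of all probes. Of the 109 detected members 25 rose and 33 fell, or 53.2%, near the 50.6% of all detected probes, of which 24.0% rose and 26.6% fell. The 2 stages did not overlap on any array for 57 members, where the share was 27.7% over all probes and 49.5% over detected probes. The median log2 fold change was 0.011 over the members and -0.013 over all probes. The closest probes outside the fold threshold were Rab10, at 0.83, and Snx24, at -0.78, while Ap1b1, at 0.88, and Snx11, at -0.86, lay just inside it.

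The split between higher and lower depended on how the arrays were scaled. With quantile normalization 44.1% of the members past the adjusted p were higher, with arrays scaled to a common median 76.1%, and with no normalization between arrays, a setting chosen after the data were seen, 92.1%. Past both thresholds the split of 6 higher and 6 lower became 11 and 3 with median scaling and 21 and 2 without normalization. Over all probes, 59.3% of the 1745 past both thresholds were higher in the main comparison. That share was 77.6% of 2075 with median scaling and 87.2% of 2600 without normalization. The median change over all detected probes itself moved from -0.046 to 0.178 and 0.377 under these settings, so changes are given relative to the bulk of the probes. Both settings shift changes upward, which by itself favours rises over falls, so that calls kept by rises are no added support. All 26 rises passed the adjusted p again under both settings. Of the 33 falls 14 did with median scaling and 6 without normalization. Under median scaling Vps45 and Ap2b1 turned in direction, and without normalization 16 falls did, which are named with their values in the closing section.

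**Figure D1:**
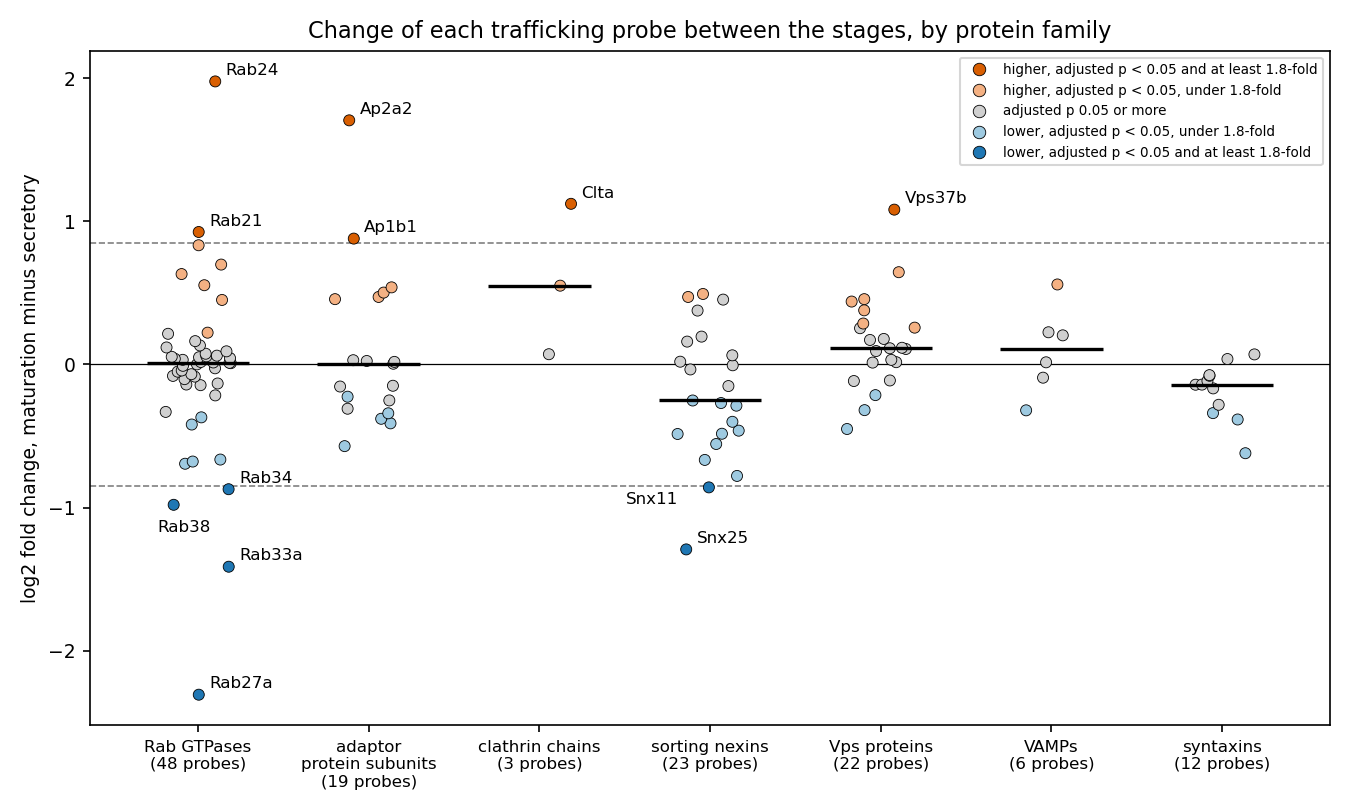
Log2 fold change (maturation minus secretory) of each of the 133 probes, in 7 protein families, with the family median as a black bar and the 1.8-fold thresholds as dashed lines. The 6 probes above the upper line and the 6 below the lower line are named, Rab27a lies lowest at -2.31 and Rab24 highest at 1.98, and the Snx median lies at -0.25.

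Promoter sequence was available for 108 of the member genes in RefSeq (build GRCr8), as 250 bases before and 50 after the annotated start. They were searched for CACGTG, a palindromic E-box that is the core of the element read by TFEB, a known regulator of lysosomal genes, and that has the same letters on both strands. It was held by 12 of 108 member promoters (11.1%) and by 7.96% of the 13295 array genes with a promoter. By family it was in 5 of 18 Vps promoters, 3 of 37 Rab, 2 of 17 Snx, 1 of 17 adaptor and 1 of 11 syntaxin promoters, and in none of the 5 VAMP and 3 clathrin promoters. Of the 6 genes listed under HOPS and CORVET, Vps33b among them, 3 held it. It was in 5 of 23 promoters of genes that rose and in 0 of 24 of genes that fell. The other holders, Vps11, Vps33a, Rab5a, Stx6, Vps26, Snx2 and Snx8, passed the adjusted p in neither direction. These counts were not tested and describe these windows only.

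The windows of the 5 risen genes that hold the motif are printed 5′ to 3′ on the strand of the gene with CACGTG in capitals. They were chosen for holding it, and the windows of holders that did not pass the adjusted p are not printed.
Rab21 (chr7:52814978-52815007, minus strand): gcccgccgcggtCACGTGacgcggagtgtg
Rab31 (chr9:112828141-112828170, minus strand): gccggccggcggCACGTGaccgacagcgga
Vps37b (chr12:38220909-38220938, plus strand): cagcgctggcgtCACGTGcccccccgcgag
Vps16 (chr3:138075627-138075656, plus strand): tggcggcctcatCACGTGaccccggcgggc
Ap1s2 (chrX:34230905-34230934, minus strand): CACGTGgccagacttccggccctcgccacg
The motif begins 52 bases before the start of Rab21 and of Vps37b, 66 before that of Rab31 and 71 before that of Vps16. In Ap1s2 it lies at the far edge of the searched stretch, 250 bases before the start. The changes of these genes are given with their complexes.

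Clathrin forms the outer cage of coated vesicles from heavy chains (Cltc) and light chains (Clta, Cltb). Both light chains rose in the maturation stage, and the heavy chain did not pass the test. Clta read 12.28, 12.27, 12.16 and 12.14 in secretory replicates 1 to 4 and 13.24, 13.34, 13.48 and 13.27 in maturation replicates 1 to 4. All 4 maturation arrays lay above all secretory arrays, by 2.18-fold on average (log2 1.12, SE 0.0699, limma adjusted p = 2.52e-06). Cltb read 9.84, 9.84, 9.83 and 9.58 against 10.30, 10.23, 10.48 and 10.27, without overlap (log2 0.55, SE 0.0829, limma adjusted p = 0.000748). Cltc read 13.05 to 13.21 in the secretory and 13.12 to 13.23 in the maturation arrays, and its change of 0.07 (SE 0.0597) had a limma adjusted p of 0.494.

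Of the 18 adaptor probes detected on at least 4 arrays 11 passed the adjusted p (61.1%), against 50.6% of all detected probes, of which 24.0% rose and 26.6% fell. AP-2 is the adaptor that links clathrin to cargo at the plasma membrane, from 2 large subunits (alpha, encoded by Ap2a1 or Ap2a2, and beta, by Ap2b1), a medium subunit that binds cargo signals (Ap2m1) and a small one (Ap2s1). Of its 5 probes, all detected, 3 rose and 1 fell. The largest rise was that of the alpha subunit Ap2a2, which read 9.01, 8.95, 9.09 and 9.01 in secretory replicates 1 to 4 and 10.46, 10.79, 10.81 and 10.83 in maturation replicates 1 to 4. The stages were clearly apart and maturation replicate 1 was the lowest of its stage. The change was 3.26-fold (log2 1.70, SE 0.0885, limma adjusted p = 8.32e-07), and between 1.67 and 1.79 with any 1 array left out. Its relative Ap2a1 read 6.01 to 6.65 in the secretory and 6.25 to 6.51 in the maturation arrays, with a change of 0.02 (SE 0.143). Ap2s1 read 12.89 to 13.00 and then 13.34 to 13.54, a rise of 0.54, and Ap2m1 10.70 to 10.89 and then 11.17 to 11.38, a rise of 0.47. The beta subunit Ap2b1 fell by 0.23 (limma adjusted p = 0.029). That call was lost without secretory replicate 1, 2 or 3 or maturation replicate 1, 2 or 4, at -0.23 to -0.19, and the direction turned to 0.10 with median scaling and 0.30 without normalization.

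AP-1 works with clathrin at the trans-Golgi network and on endosomes. Of its 6 probes, all detected, 3 rose and 1 fell, or 66.7% against 50.6% of all detected probes. The large subunit Ap1b1 read 8.34, 8.32, 8.20 and 8.14 in the secretory arrays against 9.15, 9.14, 9.06 and 9.17 in the maturation arrays. The stages did not overlap, and the change was 1.84-fold (log2 0.88, SE 0.0635, limma adjusted p = 6.53e-06), falling under the fold threshold without secretory replicate 4, at 0.84. The gamma subunit Ap1g2 rose by 0.50, from 9.85 to 9.99 up to 10.38 to 10.46, and the small subunit Ap1s2, printed above for its promoter, by 0.46. The medium subunit Ap1m1 fell by 0.34, a call lost with median scaling, at -0.10, and a direction that turned to 0.10 without normalization. Ap1g1 and Ap1s1 had changes of 0.004 and -0.15 and did not pass the test.

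AP-3 carries cargo from endosomes to lysosomes and lysosome-related organelles. None of its 6 probes rose and 3 fell, among 5 detected ones, where 26.6% of all detected probes fell. The medium subunit Ap3m1 read 7.46, 7.26, 7.34 and 7.64 in the secretory arrays and 6.84, 6.79, 6.78 and 7.01 in the maturation arrays, without overlap (log2 -0.57, SE 0.0919, limma adjusted p = 0.00112). The large subunit Ap3b1 fell by 0.38, with all 4 rats between -0.39 and -0.36, and the medium subunit Ap3m2 fell by 0.41. These last calls were lost with median scaling, at -0.090 and -0.081, and turned to 0.11 and 0.12 without normalization. Without normalization Ap3m1 lost its call as well, at -0.047 (limma adjusted p = 0.762). Ap3d1 and Ap3s1 had changes of 0.03 and -0.25, and Ap3b2 was not detected on any array. The AP-4 subunits Ap4b1 and Ap4m1, at -0.15 and -0.31, did not pass the test (limma adjusted p of 0.0765 and 0.0734).

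**Figure D2:**
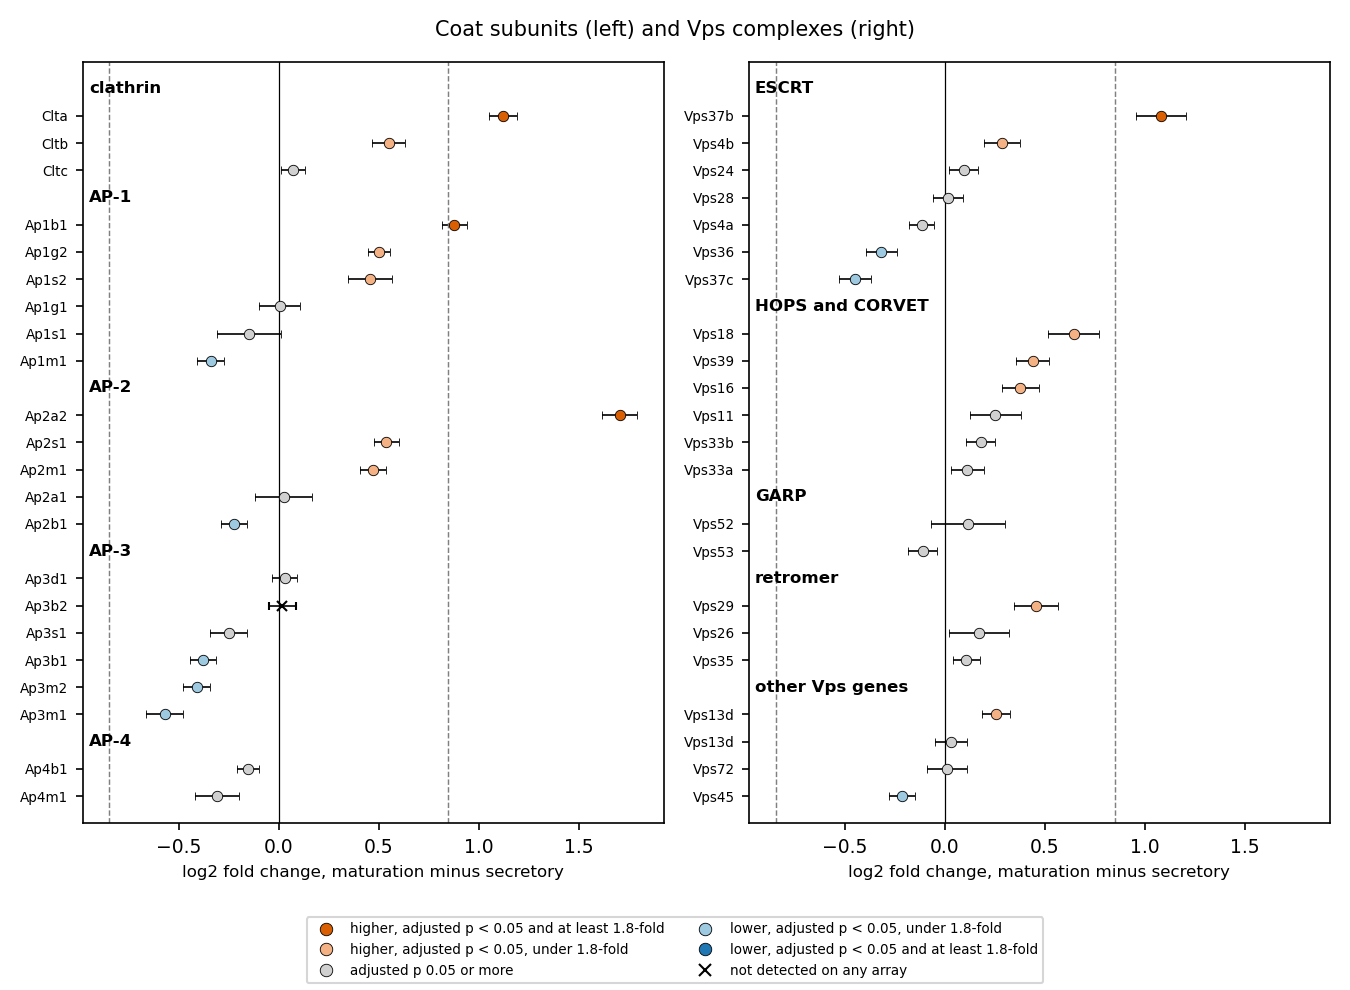
Log2 fold change with its SE for the clathrin and adaptor subunits (left) and for the Vps genes by complex (right), coloured by call, with the 1.8-fold thresholds dashed and crosses for probes detected on no array. Ap2a2 stands at 1.70 beside Ap2a1 at 0.02, the AP-3 probes lie between -0.57 and 0.03, and the 6 probes listed under HOPS and CORVET between 0.11 and 0.64.

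The Vps genes, first known from yeast vacuolar sorting, act on endosomes in several complexes. Of their 22 probes 7 rose and 3 fell, against 12.8% and 14.0% of all probes. Of the 21 detected ones 7 rose and 3 fell, 10 in all (47.6%), near the 50.6% of all detected probes, of which 24.0% rose and 26.6% fell. Their median change was 0.11. HOPS and CORVET tether endosomes and lysosomes before fusion. The list of 6 probes used for them also holds Vps33b, a relative of Vps33a that in mammals belongs to another complex. All 6 had a fitted change above 0, from 0.11 to 0.64, and 3 passed the test, 50% where 50.6% of all detected probes did. Vps18, a core subunit, read 4.85, 5.15, 4.85 and 4.66 in the secretory arrays, of which 1 detected it, and 5.26, 5.59, 5.77 and 5.47 in the maturation arrays, all of which did. The stages did not overlap (log2 0.64, SE 0.129, limma adjusted p = 0.00417). The HOPS subunit Vps39 rose by 0.44 and the core subunit Vps16, whose promoter window is printed above, by 0.38 (limma adjusted p of 0.00314 and 0.0114). Vps11, Vps33b and Vps33a, at 0.25, 0.18 and 0.11, did not pass, although Vps33b did without 1 of the arrays.

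The ESCRT complexes sort ubiquitinated cargo into multivesicular bodies. Of 7 ESCRT probes 2 rose and 2 fell, or 57.1%, near the 50.6% of all detected probes, and subunits that can take the same place in ESCRT-I moved apart. Vps37b read 6.39, 6.38, 6.55 and 6.33 in the secretory and 7.09, 7.62, 7.66 and 7.60 in the maturation arrays. Maturation replicate 1 was the lowest of its stage and still above every secretory array, and the change was 2.12-fold (log2 1.08, SE 0.123, limma adjusted p = 0.000127), or 0.58 on the log2 scale without background correction. Vps37c read 5.63, 5.61, 5.80 and 5.61 and then 5.10, 5.09, 5.33 and 5.33, a fall of 0.45 without overlap (limma adjusted p = 0.00218) that did not pass without normalization, at -0.12. The ATPase Vps4b, which takes ESCRT filaments apart, rose by 0.29, a call lost with the rat as a block (limma adjusted p = 0.0926) and without secretory replicate 3 or 4 or maturation replicate 2, 3 or 4, at 0.23 to 0.29. Vps36 of ESCRT-II fell by 0.32, a call lost with median scaling, at -0.057, and its change was 0.14 without normalization. Vps28, Vps24 (now named Chmp3) and Vps4a had changes of 0.02, 0.09 and -0.12 and did not pass.

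Retromer returns receptors from endosomes to the Golgi or the surface. Its subunit Vps29 rose by 0.46, with 1 of 4 secretory and 4 of 4 maturation arrays detecting it and with 1 overlap between the stages, at 5.03. Vps35 and Vps26 had changes of 0.11 and 0.17 and did not pass, nor did the GARP subunits Vps52 and Vps53 at 0.12 and -0.11. One of 2 probes of the lipid transfer protein Vps13d rose by 0.26, a call lost without secretory replicate 2 or maturation replicate 2 or 4, at 0.22 to 0.23, and the other was detected on 1 array. Vps45, which assists SNARE assembly, fell by 0.21. That call was lost without secretory replicate 1, 2 or 3 or maturation replicate 1, 2 or 4, at -0.22 to -0.19, and the direction turned to 0.14 with median scaling and 0.33 without normalization. Vps72, a nuclear protein that shares only the name, had a change of 0.01.

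Rab GTPases give each compartment its identity. Of 48 Rab probes 8 rose (16.7%) and 9 fell (18.8%), against 12.8% and 14.0% of all probes, and 9 were detected on no array. Of the 33 detected ones 7 rose and 9 fell, 48.5% in all, near the 50.6% of all detected probes. Among the Rabs of the endoplasmic reticulum (ER) and Golgi, 1 of 13 probes rose and 5 fell, and the 5 falls were among 7 detected ones, where 26.6% of all detected probes fell. Rab33a read 6.93, 6.72, 7.06 and 6.43 in the secretory and 5.93, 4.99, 5.18 and 5.38 in the maturation arrays. The stages did not overlap, with maturation replicate 1 the highest of its stage, and the change was 2.66-fold lower (log2 -1.41, SE 0.202, limma adjusted p = 0.000528), or -0.55 on the log2 scale without background correction and -0.93 with an offset of 50. The deposited signals of Rab33a did overlap, with maturation replicate 1 at 175 above secretory replicate 4 at 158. Rab34, a Golgi-associated Rab also known for its role in cilia, read 10.07, 9.89, 9.88 and 9.95 and then 9.10, 9.07, 8.93 and 9.21, without overlap. It was 1.83-fold lower (log2 -0.87, SE 0.0754, limma adjusted p = 2.07e-05), and under the fold threshold without secretory replicate 1, at -0.83, or maturation replicate 3, at -0.82. It was -0.54 with median scaling and -0.34 without normalization.

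Rab2 and Rab2b, which act between the ER and the Golgi, fell by 0.37 and 0.68. Rab2b read 8.60, 8.41, 8.48 and 8.48 in the secretory and 8.03, 7.72, 7.70 and 7.79 in the maturation arrays. Rab30, a Golgi Rab, read 8.41, 8.58, 8.29 and 8.26 and then 7.77, 7.65, 7.76 and 7.70, a fall of 0.66. Neither of the last 2 genes overlapped between the stages. Without normalization both lost their call, Rab2b at -0.13 and Rab30 at -0.13 (limma adjusted p of 0.496 and 0.441). Rab2 lost it with median scaling, at -0.083, and its change was 0.12 without normalization. Rab43, the 1 probe counted as a rise, was detected on no secretory and 3 maturation arrays. Its maturation mean was 0.973 of the lowest detected signal on the secretory arrays, so that no rise is read from it. Rab1 and Rab18, which act in the early secretory pathway, had changes of 0.09 and 0.02 and did not pass. The 3 probes listed as Rab6b, of which 1 now carries the symbol Rab6a, were detected on at most 3 arrays.

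Among the Rabs of early endosomes and recycling, 4 of 13 probes rose and 1 fell, or 45.5% of the 11 detected ones against 50.6% of all detected probes. Rab21, which acts in the uptake of integrins into early endosomes and whose promoter window is printed above, read 10.63, 10.71, 10.71 and 10.41 in secretory replicates 1 to 4 and 11.62, 11.44, 11.54 and 11.55 in maturation replicates 1 to 4. All maturation arrays were higher, by 1.90-fold (log2 0.92, SE 0.0795, limma adjusted p = 2.01e-05). Rab5c, one of 3 forms of the Rab that directs fusion of early endosomes, read 9.86, 9.89, 9.87 and 9.70 and then 10.28, 10.72, 10.56 and 10.53, a rise of 0.70 without overlap. The other forms, Rab5a and Rab5b, had changes of -0.05 and 0.06 and did not pass.

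Rab31, which acts between the trans-Golgi network and endosomes, rose by 0.63, from 5.51 to 5.63 in the secretory arrays to 5.98 to 6.43 in the maturation arrays. Rab11a, of recycling endosomes, rose by 0.22, a call lost with the rat as a block (limma adjusted p = 0.0513). Rab4a, of rapid recycling to the surface, fell by 0.69, from 8.62 to 8.83 in the secretory to 7.90 to 8.20 in the maturation arrays, without overlap, and did not pass without normalization, at -0.15. Rab4b, Rab11b, Rab14 and Rab25, between 0.03 and 0.16, did not pass.

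Among the Rabs of exocytosis and polarised delivery, 2 of 12 probes rose and 2 fell, or 57.1% of the 7 detected ones against 50.6% of all detected probes. Rab27a, which docks secretory granules and lysosome-related organelles at the plasma membrane, had the largest fall of all members. It read 8.89, 8.78, 8.80 and 8.69 in secretory replicates 1 to 4 and 6.36, 6.52, 6.51 and 6.55 in maturation replicates 1 to 4. The SD was 0.0833 and 0.0815 (n = 4 each) against a change of 4.95-fold (log2 -2.31, SE 0.0665, limma adjusted p = 3.55e-08), and the 4 rats gave -2.53, -2.26, -2.29 and -2.14. Without background correction the change was -1.49. Its relative Rab27b was detected on 1 array, in the maturation stage.

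Rab10, of polarised delivery to the surface, read 8.41, 8.46, 8.55 and 8.41 and then 9.15, 9.32, 9.47 and 9.22, a rise of 0.83 that stayed under the fold threshold at 1.78-fold. Rab13, known from tight junctions, rose by 0.55 and Rab8a, of apical delivery and the cilium, fell by 0.42, a call lost with median scaling, at -0.078, with a turn to 0.12 without normalization. Rab3d, a Rab of secretory granules detected on all arrays, had a change of 0.04, and Rab3a, Rab3b and Rab3c had changes of 0.21, -0.08 and -0.09, none of which passed.

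Of 5 probes for Rabs of late endosomes, lysosomes and lysosome-related organelles, 1 rose and 1 fell, or 50% of the 4 detected ones against 50.6% of all detected probes. Rab24, an unusual Rab linked to autophagy, had the largest rise of all members and the widest spread. It read 7.42, 7.21, 7.25 and 7.27 in secretory replicates 1 to 4 and 8.22, 10.18, 9.68 and 8.96 in maturation replicates 1 to 4. All maturation arrays were above the secretory arrays, with maturation replicates 1 and 4 the lowest of the stage, the same arrays that kept most Enam. The SD was 0.0906 and 0.858, and the change was 3.93-fold (log2 1.98, SE 0.351, limma adjusted p = 0.00203), or 1.67 to 2.32 on the log2 scale with any 1 array left out. The standard error over its 37 to 51 beads was 2.75% to 3.61% of the signal on each array, an error of the bead measurement alone.

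Rab38, which acts in the making of lysosome-related organelles, read 7.92, 7.82, 7.89 and 8.14 in the secretory and 7.42, 6.66, 6.76 and 7.003 in the maturation arrays. The stages did not overlap, maturation replicate 1 was the highest of its stage, and the change was 1.97-fold lower (log2 -0.98, SE 0.155, limma adjusted p = 0.00101). In the deposited signals before correction and normalization, maturation replicate 1 read 322, above all secretory arrays at 279 to 308. Without normalization Rab38 passed neither threshold, at -0.46 (limma adjusted p = 0.0968), and without background correction it was at -0.60. Rab7, the main Rab of late endosomes, read 10.60 to 10.73 in the secretory and 10.53 to 10.77 in the maturation arrays, with a change of 0.01, and Rab9 had a change of -0.22. Neither passed the test. The probe listed as Rab2l now belongs to Ralgdsl2, which is no Rab, and its change was 0.01.

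**Figure D3:**
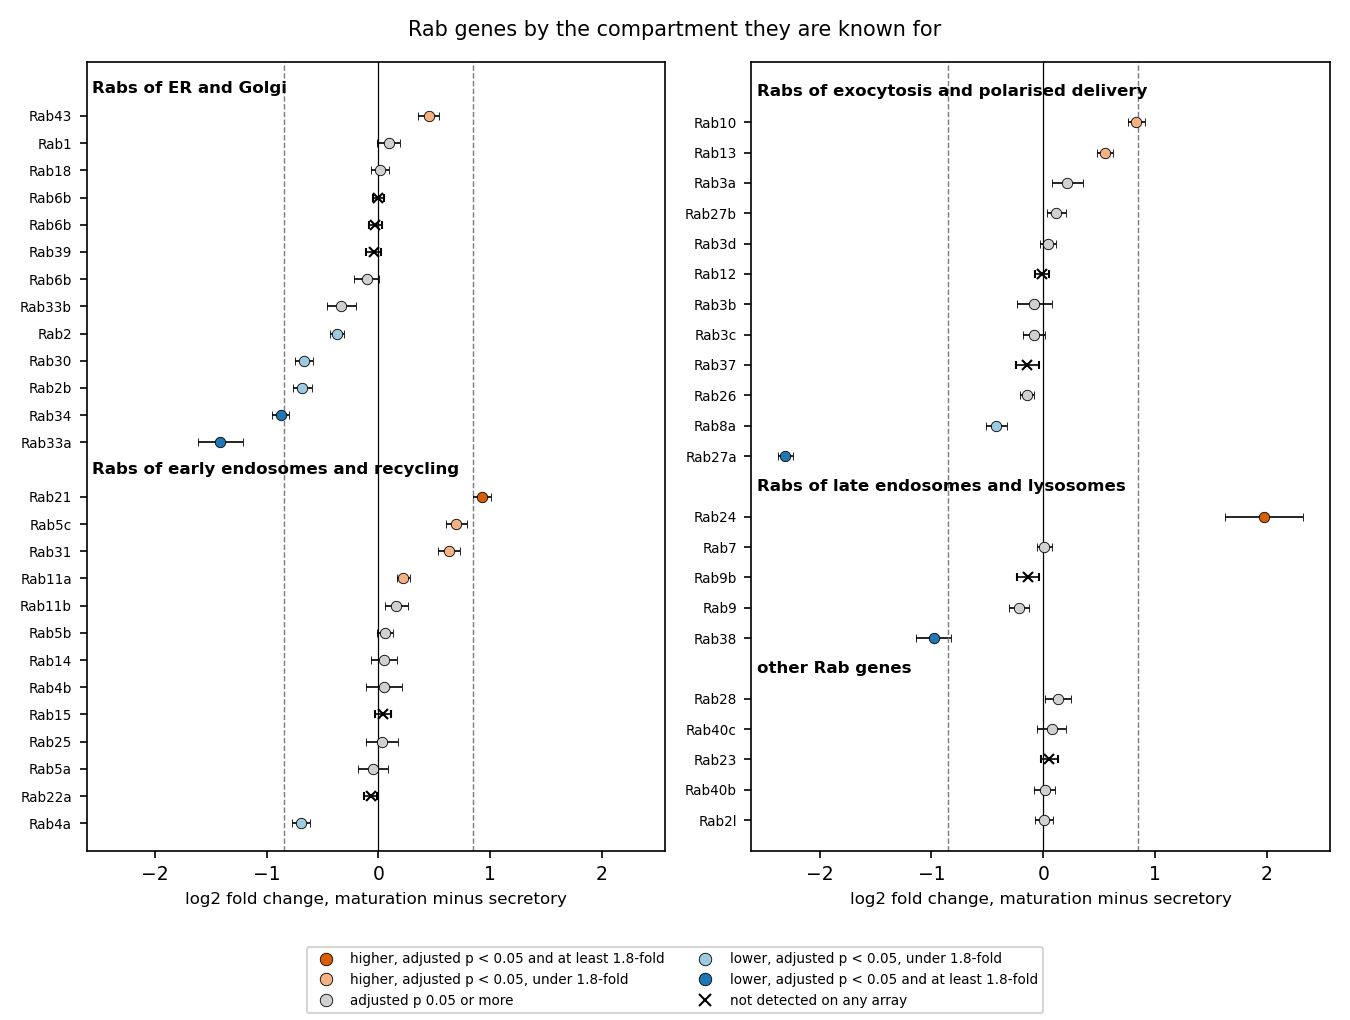
Log2 fold change with its SE for the 48 Rab probes, grouped by the compartment each is known for and coloured by call, with the 1.8-fold thresholds dashed and crosses for probes detected on no array. Of the ER and Golgi probes 5 of 13 fell and 1 (Rab43) passed the adjusted p upward, and of the early endosome and recycling probes 4 of 13 rose and 1 fell.

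Sorting nexins bind the lipids of endosomes through a PX domain. Of 23 Snx probes 12 fell (52.2%) and 2 rose, against 14.0% and 12.8% of all probes. All 14 were among the 20 detected ones, where 26.6% of all detected probes fell. The median change was -0.25, and it was -0.066 with median scaling and 0.13 without normalization. With median scaling 8 of the 12 falls lost their call, those of Snx1, Snx4, Snx6, Snx14, Snx19, Snx26 and both probes of Snx17, while Snx25, Snx11, Snx24 and Snx12 kept it. Without normalization 3 of the 12 passed the adjusted p and 5 turned in direction. Snx25 read 11.00, 10.94, 10.91 and 10.85 in secretory replicates 1 to 4 and 9.77, 9.63, 9.45 and 9.69 in maturation replicates 1 to 4. The stages were apart on every array, and the change was 2.45-fold lower (log2 -1.29, SE 0.0767, limma adjusted p = 1.88e-06), or -0.80 without normalization. Snx11 read 6.44, 6.49, 6.62 and 6.67 and then 5.56, 5.85, 5.72 and 5.65, without overlap and 1.81-fold lower (log2 -0.86, SE 0.0813, limma adjusted p = 3.76e-05). Its bead signals before correction were low, 157 to 172 in the secretory and 145 to 162 in the maturation arrays. The change was -0.34 without background correction, -0.58 with an offset of 50, -0.62 with median scaling and -0.42 without normalization. Snx11 also fell under the fold threshold without secretory replicate 3 or 4 or maturation replicate 1 or 4, at -0.84 to -0.81.

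Snx24 read 9.95, 9.91, 9.89 and 9.90 in the secretory and 8.96, 9.26, 9.16 and 9.16 in the maturation arrays, a fall of 0.78 without overlap that did not reach the fold threshold. Snx12 fell by 0.67, Snx14 by 0.48, and both probes of Snx17, which recycles receptors of the LDL family, by 0.49 and 0.40. The first of the Snx17 probes lost its call without secretory replicate 1 or 2, at -0.44 and -0.43. Snx1 and Snx6 have a BAR domain, which shapes membrane, and work with retromer. They fell by 0.46 and 0.56, whereas their relatives Snx2 and Snx5 had changes of 0.02 and 0.45 and did not pass, although Snx5 did without 1 array in each of 2 cases. Snx1 read 9.75 to 9.80 in the secretory and 9.24 to 9.39 in the maturation arrays.

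Smaller falls were those of Snx4, at -0.25, of Snx19, at -0.29, and of 1 of 2 probes of Snx26, at -0.27. The call of Snx4 was also lost with background correction that used no negative controls (normexp) and with cyclic loess, and without secretory replicate 1, 3 or 4 or maturation replicate 1, 2 or 3 (-0.26 to -0.21), and that of Snx19 with the rat as a block (limma adjusted p = 0.0651) and without any secretory replicate or maturation replicate 1 or 4 (-0.31 to -0.22). The risen genes were Snx15, by 0.47, and Snx10, known from osteoclasts, by 0.49. Snx10 read 7.11, 7.41, 7.02 and 7.77 and then 8.02, 7.80, 7.72 and 7.73, with overlap, and its call was lost with the rat as a block (limma adjusted p = 0.0539) and without any array other than secretory replicate 4, at 0.39 to 0.52. The osteoclast markers given above rose with it, and their part was not tested.

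**Figure D4:**
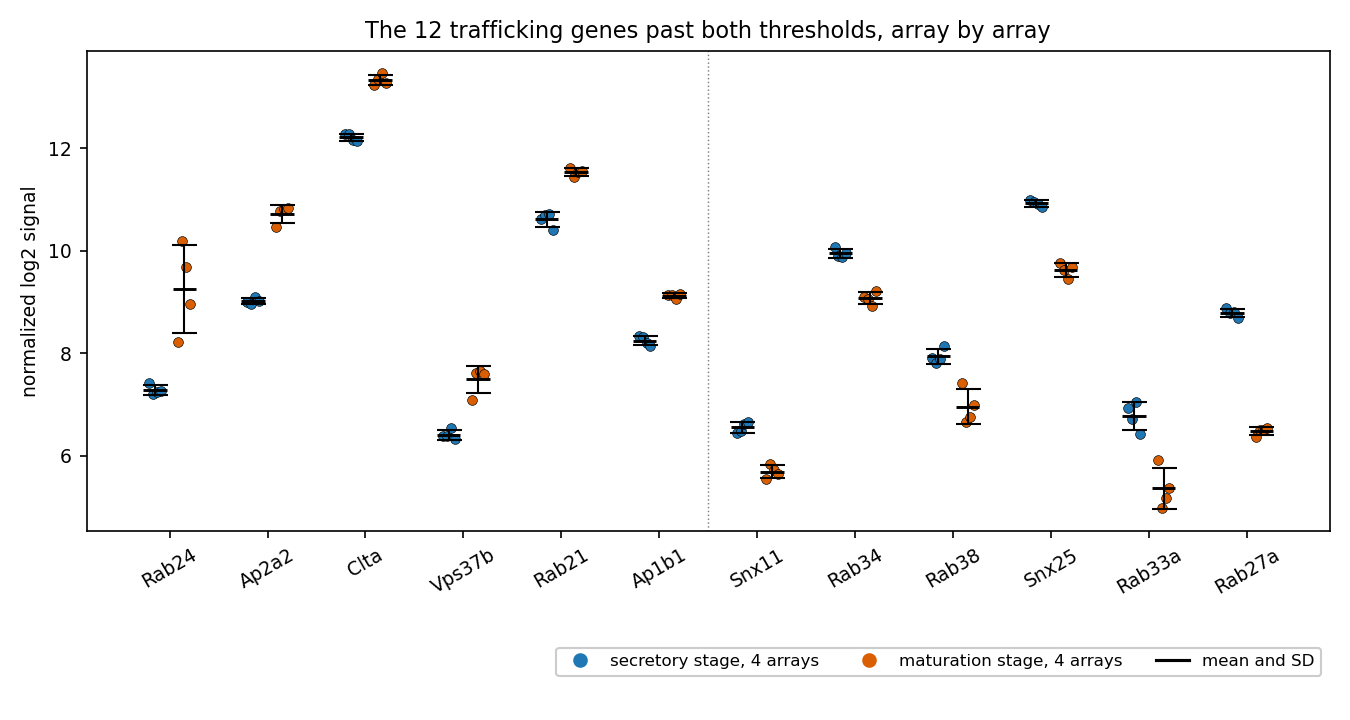
Normalized log2 signal on each of the 8 arrays for the 12 genes past both thresholds, with the mean and SD (n = 4) of each stage and the 6 higher genes left of the dotted line. On this normalized scale no gene overlaps between the stages, and the maturation arrays of Rab24 spread most, from 8.22 to 10.18.

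None of the 18 SNARE probes passed both thresholds, where 7.75% of all probes did. The 12 syntaxin probes held 3 falls and no rise, and the 6 VAMP probes 1 rise and 1 fall. These are 33.3% of the 9 detected syntaxin and 40% of the 5 detected VAMP probes, below the 50.6% of all detected probes. Stx5a (now Stx5), the syntaxin of ER-to-Golgi transport, read 9.16, 9.10, 9.23 and 9.21 in secretory replicates 1 to 4 and 8.48, 8.54, 8.59 and 8.62 in maturation replicates 1 to 4. The stages did not overlap, and the fall was 0.62 (SE 0.0581, limma adjusted p = 3.53e-05). Without normalization its call was lost, at -0.059 (limma adjusted p = 0.597). Stx7, of late endosomes, fell by 0.39 and Stx3, of the apical membrane, by 0.34, both losing their call with median scaling, at -0.100 and -0.13, and turning in direction without normalization, to 0.099 and 0.066. The call of Stx3 was lost with normexp, without background correction, with cyclic loess, and without secretory replicate 1, 2 or 4 or maturation replicate 1, 3 or 4, at -0.34 to -0.29.

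Vamp3, of recycling endosomes, fell by 0.32, from 10.14 to 10.46 in the secretory to 9.89 to 10.04 in the maturation arrays. That call was lost with median scaling, at -0.016, and the change turned to 0.18 without normalization. Vamp5, a plasma membrane form known from muscle, rose by 0.56, from 9.14 to 9.38 up to 9.78 to 9.94 (limma adjusted p = 0.000202). Vamp8, which acts in late endosomal fusion and in exocytosis, read 11.00 to 11.21 and then 11.27 to 11.36 without overlap, with a change of 0.20 and a limma adjusted p of 0.059 that passed 0.05 without 1 array in each of 2 cases. Stx6, Stx8, Stx12, Stx16 and Vamp4, of endosomes and the trans-Golgi network, had changes between -0.17 and -0.08 and did not pass. The neuronal forms Stx1a and Vamp1 were detected on no array.

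Close relatives were compared within each array, by asking whether the difference of their log2 signals changed between the stages. Of 20 pairs, 15 could be tested, with both genes measured and detected. With 4 against 4 arrays the exact two-sided permutation test cannot give a p below 0.0286, and 8 pairs reached it. The test shuffled arrays across rats although each rat gave both stages. A test within rats was not run and could not give a p that small. After Benjamini-Hochberg adjustment over the 15 pairs these had an adjusted p of 0.0536, so that none of the 15 passed 0.05. With 9 or more pairs at the smallest p the adjusted value would be below 0.05, and under 5 other ways of processing 9 or 10 pairs reached it. Of these 5, median scaling and no normalization must give the same result, because a shift of a whole array drops out of the difference within a pair. Without secretory replicate 3 it was also 9 pairs, and without any other array 7, which did not pass.

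Among these 8 pairs, the difference of changes was -1.68 for Ap2a1 minus Ap2a2 and 1.53 for Vps37b minus Vps37c, each with the same sign in 4 of 4 rats. It was 1.01 for Snx5 minus Snx6, -0.75 for Rab5a minus Rab5c, -0.74 for Rab4a minus Rab4b, 0.57 for Clta minus Cltb, -0.48 for Snx1 minus Snx2 and -0.40 for Vps4a minus Vps4b. In the pairs Rab11a and Rab11b, Vps33a and Vps33b, and Rab3a and Rab3d, the differences were 0.06, -0.07 and 0.17 with SE of 0.135, 0.132 and 0.130. They were -0.60 for Ap1s1 minus Ap1s2 and 0.55 for Vamp2 minus Vamp3, with SE of 0.214 and 0.183. For Stx3 minus Stx4a and Stx7 minus Stx12 they were -0.22 and -0.22, with SE of 0.168 and 0.137. None of these pairs reached the smallest p.

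**Figure D5:**
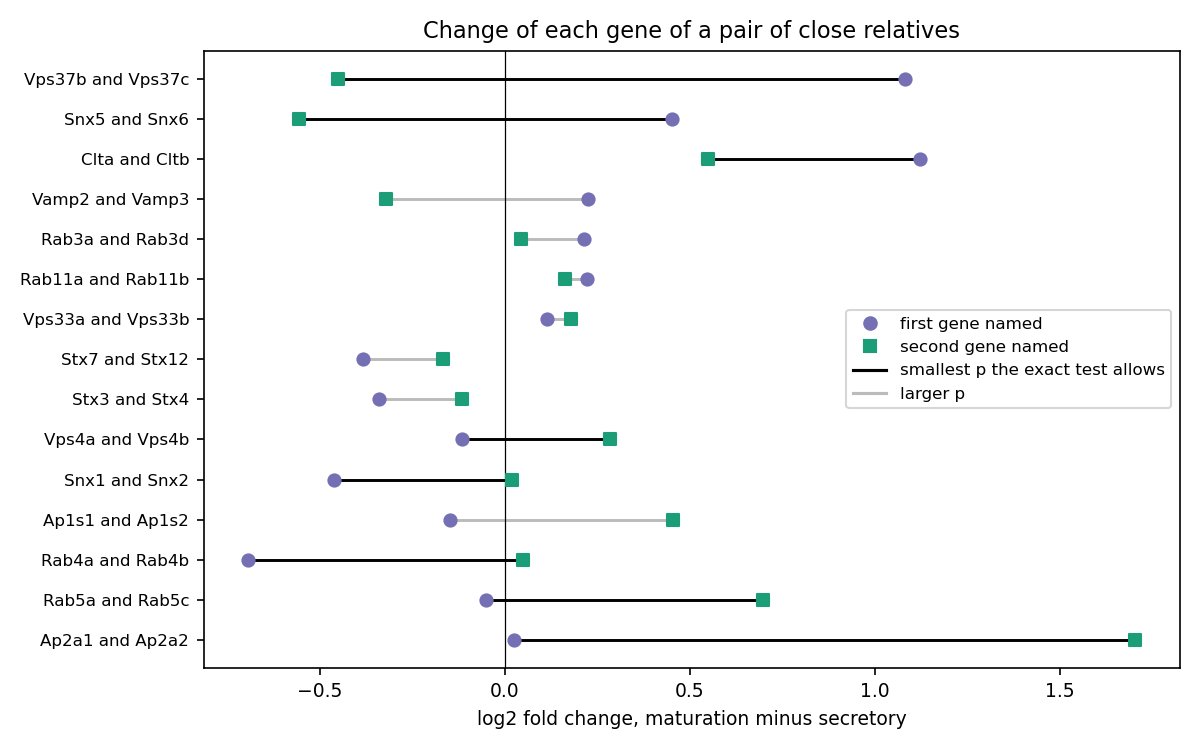
Log2 fold change (maturation minus secretory) of both genes in the 15 pairs tested, circles for the first gene named and squares for the second, joined in black where the exact permutation test gave its smallest p (0.0286) and in grey otherwise. Vps37b and Vps37c lie on opposite sides of 0, at 1.08 and -0.45, and Ap2a2 lies at 1.70 beside Ap2a1 at 0.02.

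Genes that work with the coats were read from lists of known partners. Of 35 probes of clathrin coat accessory proteins, 10 rose and 6 fell, with 3 higher and 2 lower past both thresholds. The rises include Dnajc6, which was detected on no array and from which no rise is read. Of the 29 detected ones 15 passed the adjusted p (51.7%), near the 50.6% of all detected probes. Synj1, a phosphatase that strips clathrin coats, read 7.07, 6.73, 6.49 and 6.88 in the secretory and 8.54, 8.96, 8.72 and 8.86 in the maturation arrays (log2 1.97). Tom1, which binds clathrin and ubiquitinated cargo on endosomes, rose by 1.54, and Snap91, an assembly protein of clathrin at the plasma membrane, by 1.28. None of these overlapped between the stages. Gga2, a clathrin adaptor of the trans-Golgi network, fell by 1.62, and the dynamin Dnm1, which cuts vesicles free, by 1.07. Dnm1 missed the fold threshold with median scaling and both thresholds without normalization, at -0.74 and -0.54.

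A list of 16 probes joined the proteins of caveolae, which take up cargo without clathrin, with the EHD proteins of endosomal recycling. Of these 7 rose and 3 fell, 1 of the rises being Pacsin1, which was detected on 1 array, with 9 of the 10 detected ones past the adjusted p (90%), where 50.6% of all detected probes passed. The 3 falls were those of the caveolins Cav1 and Cav2, which coat caveolae, while Cav3 was detected on no array. Cav2 read 10.08 to 10.35 in the secretory and 7.72 to 7.92 in the maturation arrays (log2 -2.41). The 2 probes of Cav1, listed as Cav, fell by 1.24 and 0.77. The recycling ATPases Ehd3 and Ehd4 rose by 2.18 and 1.73, and the membrane scaffold protein Flot2 by 1.16. Of 17 probes of endocytic and sorting receptors 8 rose and 3 fell, 1 of the falls being Amn, which was detected on 1 array, with 10 of the 13 detected ones past the adjusted p (76.9%). The transferrin receptor Tfrc, which brings iron into the cell, read 6.28, 6.57, 6.27 and 6.78 in the secretory and 10.95, 11.54, 11.35 and 11.34 in the maturation arrays (log2 4.82). One of 2 probes of the sorting receptor Sorl1 rose by 1.07. The other was at 0.002.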

How the data were processed

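The authors deposited, for 4 secretory-stage and 4 maturation-stage samples on RatRef-12 arrays, 1 table with the mean bead signal of each probe as an intensity without background correction or normalization, a detection p-value, the number of beads and their standard error. Neither the genome build nor the program behind the bead means is given in the sources used here. Stages came from the sample titles; the source label of maturation replicates 2 to 4 names the secretory stage, against title and tissue label.

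The deposited intensities were corrected, quantile-normalized and log2-transformed with neqc (limma 3.58.1, R 4.3.3; offset 16, with control levels inferred from detection p-values). All 22523 probes were fitted with lmFit and eBayes, unpaired and unfiltered, with Benjamini-Hochberg adjustment. The 12 probes past both thresholds had 28 to 59 beads per array and a standard error of 1.93% to 5.15% of the uncorrected signal, which includes background. The number of arrays also limits the precision, and these sources of error were not compared. On simulated arrays of 22523 probes with independent noise, 84% of 100 changes of 1 on the log2 scale and 100% of 100 changes of 2 were called, and 0 unchanged probes. The simulation had no rat effect, background correction or scaling between arrays, so it does not measure errors from these. The permutation test and the promoter search used Python 3.11.15. Current symbols came from a RefSeq table of GRCr8 by gene ID for 128 of 133 member probes.

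Each rat gave both stages. Over 11233 detected probes, the deviations of a rat's 2 samples from their stage means correlated at 0.195, 0.129, 0.219 and 0.234, and those of different rats at means of -0.080 to -0.041. Deviations within a stage cancel out, so that positive values within rats force the means over other rats below them, and these are no separate result. A replicate block for the rat was an alternative, as were other background corrections and scalings, an offset of 50, a detection filter, the methods' Student test, a stricter adjusted p, 1 probe per gene and each array left out.

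Members, lists, pairs and the motif were chosen with earlier results of these data known. Text names every member past the adjusted p, the members of tested pairs, and partner genes past both thresholds, at most 3 per list and direction. Other members are named by their role. Cd68, Dspp, Ibsp, Dmp1, Enam, S100b, Tubb3, Cav3, Dnajc6, Pacsin1 and Amn were picked from the lists after their values were seen. The marker lists were macrophage and leukocyte, fibroblast and dental mesenchyme, odontoblast and osteoblast, osteoclast, endothelium, erythroid and blood, nerve and Schwann cell, skeletal muscle, secretory ameloblast, maturation ameloblast, and epithelium.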

Additional observations from a re-analysis of the deposited data

Results flagged for a closer look

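Each stage that detected the gene on at least 1 array was examined for the members past the adjusted p, those in tested pairs, those with several probes and the brightest of each family. Among these 160 sets of 4 replicates 10 held an array whose gap to its nearest neighbour took up more of the stage's range than Dixon's test allows, where chance would give about 8. In the maturation stage, replicate 1 stood apart for Vps37b (7.09, the others 7.60 to 7.66), Ap2a2 (10.46, the others 10.79 to 10.83), Vps16 (9.85, the others 10.17 to 10.22), Stx12 (7.90, the others 8.20 to 8.23) and Stx7 (10.54, the others 10.41 to 10.42). Replicate 2 did for 1 probe of Snx26 (5.44, the others 5.20 to 5.22), and replicate 3 for Rab5a (8.26, the others 8.69 to 8.70). In the secretory stage, replicate 4 stood apart for Rab5c (9.70, the others 9.86 to 9.89) and Cltb (9.58, the others 9.83 to 9.84), and replicate 3 for Vps37c (5.80, the others 5.61 to 5.63). Of the 6 genes higher past both thresholds, 4 were lowest and 1 highest in maturation replicate 1, and of the 6 lower genes, 3 were highest and 2 lowest there. The part of that array in these differences was not tested.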

How the results depend on the processing

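The 12 probes past both thresholds kept their direction under all alternatives, and all 12 passed with the methods' Student test, the detection filter, the replicate block and an adjusted p below 0.01. The numbers were 6 higher and 6 lower in the main comparison. With the rat as a replicate block they were again 6 and 6, and at the adjusted p alone 24 and 32 in place of 26 and 33, where Rab11a, Vps4b, Snx10 and Snx19 lost their call. With 1 array left out they were 5 to 7 higher and 5 to 6 lower, and 23 to 29 and 28 to 32 at the adjusted p alone. Lower calls numbered 2 without background correction and 3 with an offset of 50, since Rab34, Rab38 and Snx11 then missed the fold threshold, as did Rab33a without correction; of the higher ones, Vps37b and Ap1b1 missed it in both. The fold threshold was also missed by Rab34, Rab38 and Snx11 with median scaling, by these and Snx25 without normalization, where Rab38 also lost the adjusted p, by Rab34 and Snx11 with cyclic loess, and by Ap1b1 and Snx11 with normexp. Median scaling gave 11 higher and 3 lower, and 51 and 16 at the adjusted p alone. No normalization between arrays, added after the data were seen, gave 21 and 2, and 70 and 6. Of all probes past both thresholds 59.3% were higher in the main comparison, 77.6% with median scaling and 87.2% without normalization.

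Family medians moved with median scaling to 0.13 (Rab), 0.17 (adaptors), 0.41 (Vps), 0.33 (VAMP) and 0.85 (clathrin), with -0.066 for Snx and -0.062 for syntaxins, and without normalization to 0.33 (Rab), 0.37 (adaptors), 0.13 (Snx), 0.61 (Vps), 0.53 (VAMP), 0.14 (syntaxins) and 1.05 (clathrin). The detection filter gave -0.073 for adaptors and 0.20 for VAMPs, over fewer probes. With 1 array left out, the medians ranged from -0.009 to 0.018 (Rab), 0.028 to 0.16 (VAMP), 0.097 to 0.14 (Vps), -0.056 to 0.027 (adaptors), 0.49 to 0.58 (clathrin), -0.26 to -0.21 (Snx) and -0.18 to -0.12 (syntaxins). Pairs past the adjusted p numbered 0 in the main comparison, 9 with normexp without negative controls, 10 without background correction, 10 with an offset of 50, 9 with median scaling, 9 without normalization, and 0 to 9 with 1 array left out. The counts with median scaling and without normalization are the same result, because a shift of a whole array drops out of the difference within a pair.

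Calls at the adjusted p alone were also lost by Rab11a, Vps4b, Vps13d, Vps45, Ap2b1, Snx19, Snx26, Snx4 and Stx3 with normexp, by Snx19, Snx26 and Stx3 without background correction, by Ap2b1, Snx19, Snx4, Stx3 and Vps45 with cyclic loess, by Snx10 with an offset of 50, and by Snx10, 1 probe of Snx17, Snx19, Snx4, Stx3 and Vps4b with the methods' Student test.

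The changes of Vps45 (0.14) and Ap2b1 (0.10) turned above 0 with median scaling without passing the test. Without normalization Vps45 (0.33) and Ap2b1 (0.30) turned and passed it. The others that turned there did not pass, and were Snx4 (0.19), Vamp3 (0.18), Vps36 (0.14), Snx19 (0.13), Rab8a (0.12), Ap3m2 (0.12), Rab2 (0.12), Ap3b1 (0.11), Stx7 (0.099), Snx17 (0.097 for 1 probe), Ap1m1 (0.097), Snx26 (0.068), Stx3 (0.066) and Snx1 (0.064), which the shift of all detected probes by that setting would move. Signals near background limit Snx11, Rab33a, Rab43, Vps18, Vps29 and Vps37c, and 14 members were detected on no array.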

Other observations

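Partners of the Rab and SNARE proteins moved in both directions. Of 37 probes of Rab regulators and effectors, 2 rose and 7 fell, with 2 in each direction past both thresholds. Of the 27 detected ones 9 passed the adjusted p (33.3%), below the 50.6% of all detected probes. The motor Myo5b, which carries recycling endosomes along actin, read 5.36, 4.84, 5.47 and 5.34 in secretory replicates 1 to 4 and 6.95, 6.75, 6.85 and 7.24 in maturation replicates 1 to 4 (log2 1.70, limma adjusted p = 2.26e-05). Rab3il1, an exchange factor, rose by 1.47. Sytl1, a synaptotagmin-like effector of Rab27 proteins, read 8.50, 8.14, 8.06 and 8.49 and then 7.37, 7.26, 7.06 and 7.34 (log2 -1.04, limma adjusted p = 0.00012), and Rab11fip3, an effector of Rab11, fell by 1.19. The stages did not overlap for these 4 genes.

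Of 23 probes of SNARE partners 5 rose and 8 fell, or 65% of the 20 detected ones against 50.6% of all detected probes. Snap25, the SNARE of neuronal and endocrine exocytosis, was not detected on any secretory array and read 8.78, 9.30, 8.85 and 9.14 in the maturation arrays, at least 15.7-fold higher against the lowest detected signal (limma adjusted p = 2.84e-08). It is also on the list of nerve and Schwann cell markers, of which S100b rose by 1.20 and Tubb3 fell by 2.58, and the part of nerve in its rise was not tested. Sec22b, a SNARE of ER-to-Golgi transport listed as Sec22l1, fell by 1.12, and Scfd2, of the family of SNARE regulators, by 1.06. Of 13 other ESCRT probes 4 rose and 1 fell, or 41.7% of the 12 detected ones. The fall was that of Chmp4c, listed as MGC108776, by 0.89. It missed the fold threshold without maturation replicate 1, at -0.80, without background correction, at -0.77, with cyclic loess, at -0.82, with median scaling, at -0.55, and without normalization, at -0.36. Of 9 exocyst probes 1 rose and 1 fell, or 28.6% of the 7 detected ones. The fall was that of Exoc6, by 0.90, which missed the fold threshold in the last 4 of these settings, at -0.68, -0.83, -0.56 and -0.36, and with an offset of 50, at -0.82. None of 16 synaptotagmin probes passed the test, and 11 of them were detected on no array. All 21 partner genes past both thresholds kept their direction under the settings run; 14 of them stayed past both thresholds with median scaling, 13 without normalization, 13 without background correction, 19 with cyclic loess and 20 with an offset of 50. Beside Chmp4c and Exoc6, the fold threshold was missed with median scaling and without normalization by Sytl1, at -0.70 and -0.50, Rab11fip3 (listed as RGD1308952), at -0.84 and -0.64, Sec22b (Sec22l1), at -0.81 and -0.61, Scfd2 (LOC498353), at -0.72 and -0.53, and Dnm1. Without normalization Cav1 (Cav) missed it as well, at -0.69. Without background correction it was missed by Sytl1, at -0.70, Rab11fip3, at -0.84, Cav1, at -0.82, Flot2, at 0.69, Rab3il1, at 0.53, and Myo5b, at 0.67.

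The other lists of markers gave 0 of 3 erythroid and blood probes past both thresholds, 1 higher and 1 lower of 7 odontoblast and osteoblast probes, 1 higher of 7 fibroblast and dental mesenchyme probes, 1 higher of 6 endothelial probes, 2 higher and 1 lower of 7 nerve and Schwann cell probes, 0 of 5 skeletal muscle probes, 0 higher and 2 lower of 4 secretory ameloblast probes, and 1 higher and 1 lower of 4 epithelial probes. At the adjusted p alone 4 fibroblast and dental mesenchyme probes rose and 1 fell, and 2 endothelial probes rose and 0 fell. The summed log2 signal of the fibroblast and dental mesenchyme probes was 15.94 to 16.14 in the secretory and 16.25 to 16.27 in the maturation arrays. The part of these cells in the results was not tested.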
